A study of Mus musculus with 8 samples.

Results

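Cytosolic sulfotransferases of mouse liver outside the Sult2a and Sult3a families are described here, but not all of them: Sult1c1 and Sult4a1, for example, are not included. The genes are Sult1a1, Sult1b1, Sult1c2, Sult1d1, Sult1e1, Sult2b1 and Sult5a1, together with Papss1 and Papss2, the synthases of their sulfate donor. They were chosen by name: a probe belonged to them if its RefSeq accession belonged to one of these 9 symbols, out of 22911 symbols that the array could be matched to. The 9 genes were read by 14 of 56605 probes, 5 of them (Sult1a1, Sult1b1, Sult1d1, Sult5a1 and Papss2) by 2 probes each and the other 4 by 1. The samples were whole livers of mice 10 to 11 weeks old in 4 groups of 2 arrays: males labelled as a liver-specific knockout of Bcl6, wild-type males, females labelled as the same knockout, and wild-type females. Bcl6 is a zinc-finger repressor of transcription. No source used here gives the driver of the deletion, the strain, or whether each array came from its own animal; p-values therefore reflect only how far these samples spread, which may be technical. The study asked how Bcl6 bears on the difference between male and female liver.

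Cytosolic sulfotransferases move a sulfate group from the donor PAPS (3'-phosphoadenosine 5'-phosphosulfate) onto phenols, steroids, thyroid hormones, catecholamines and drugs, which mostly makes these molecules more soluble in water and less active. PAPS is made from ATP and inorganic sulfate by the synthases Papss1 and Papss2, each of which carries out both steps of the reaction. Liver is a main site of this conjugation, and several sulfotransferases are known to differ in level between male and female rodents.

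The slide and the scan time were shared by all 8 arrays (1 of each), the females in row 1 and the males in row 2, so that row and sex cannot be told apart. On each array 33677 to 36459 of 59305 spots other than controls were well above background, and no spot was saturated. The number of arrays limits the precision. Levels are log2 of the processed intensity relative to the array's 75th percentile over probes, and a difference of 1 on this scale is a doubling. Bcl6 was read by 1 probe at 4.49 and 4.01 in males labelled knockout, against 3.97 and 2.91 in wild-type males, and at 1.62 and 4.41 in females labelled knockout, against 2.95 and 0.86 in wild-type females. The difference was 0.81 ± 1.06 in males and 1.11 ± 1.06 in females (limma adjusted p = 0.676 and 0.556), so neither mean was lower in the arrays labelled knockout. The arrays labelled knockout lay above the wild type in males and overlapped it in females. Where this probe lies with respect to the deletion is unknown here; it checks no label, and every direction below follows the labels. All 10 hepatocyte markers examined (Alb, Apoa1, Ttr and others) were well above background on all 8 arrays, and their summed linear level was 5699 to 5848 times the 75th percentile in males labelled knockout, 5818 to 5997 in wild-type males, 5169 to 5854 in females labelled knockout and 5111 to 5731 in wild-type females.

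Of the 9 genes, 8 passed the filter on dim probes (a probe was kept if some group had both its arrays well above background) and were tested among 26551 genes and unnamed transcripts. Of these 8, 7 were well above background on all 8 arrays, Sult1e1 being the exception. Sult2b1 was not tested. In males labelled knockout against wild-type males, 2 of the 8 tested members rose and none fell by limma with Benjamini-Hochberg adjustment at 0.05; 10.7% of all tested features were called, 5.77% of them higher and 4.93% lower. These 2 were Sult1c2 and Papss2. In females labelled knockout against wild-type females 1 of 8 rose, Sult1c2, where 5.93% of all features were called, 3.48% higher and 2.45% lower. The median difference of the 8 was 0.22 in males and 0.30 in females, against -0.04 and 0.00 over all tested features, and 5 and 3 of the 8 had an unadjusted p under 0.05, where 27.2% of all features did in males and 24.9% in females. The interaction, which asks whether the knockout difference depends on sex, passed for none of the 8 by limma (0 at an unadjusted p under 0.05, where 8.37% of all features were), with 0.188% of all features called, 0.0904% above and 0.0979% below 0.

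Sult1c2, a phenol sulfotransferase of chromosome 17, and Papss2, a PAPS synthase of chromosome 19, are the members that passed the test. The 250 bases before their annotated starts in RefSeq (build GRCm38.p6) are printed because these are the members whose level passed the test, and capitals mark CpG dinucleotides. The Sult1c2 region is chr17:53845959-53846208 on the minus strand. Papss2 has 2 annotated starts, whose regions are chr19:32595465-32595714 and chr19:32619755-32620004 on the plus strand, and the probes were not assigned to either.
Sult1c2: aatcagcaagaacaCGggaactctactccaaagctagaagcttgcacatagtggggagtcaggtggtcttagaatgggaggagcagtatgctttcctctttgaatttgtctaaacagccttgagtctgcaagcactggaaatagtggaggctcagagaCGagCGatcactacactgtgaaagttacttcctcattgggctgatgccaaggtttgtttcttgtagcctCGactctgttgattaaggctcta
Papss2, upstream start: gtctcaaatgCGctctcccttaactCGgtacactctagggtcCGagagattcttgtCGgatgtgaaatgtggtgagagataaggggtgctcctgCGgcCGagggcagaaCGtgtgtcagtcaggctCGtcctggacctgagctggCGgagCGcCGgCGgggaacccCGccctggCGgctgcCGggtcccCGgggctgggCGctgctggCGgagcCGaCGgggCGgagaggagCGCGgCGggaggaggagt
Papss2, downstream start: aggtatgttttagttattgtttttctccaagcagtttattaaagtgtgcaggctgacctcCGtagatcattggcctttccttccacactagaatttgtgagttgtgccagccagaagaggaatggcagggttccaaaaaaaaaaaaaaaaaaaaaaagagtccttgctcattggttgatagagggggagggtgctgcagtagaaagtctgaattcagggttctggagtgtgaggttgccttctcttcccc

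The Sult1c2 region holds 4 CpG dinucleotides and has a GC content of 46.4%. The region of the upstream Papss2 start holds 24 CpG (67.6% GC) and that of the downstream start 1 (43.2% GC). Over 32851 promoter regions of the same length the median was 6 CpG, with quartiles of 2 and 16. Among the other members, both Sult1b1 starts, Sult1a1, Sult1d1 and Sult1e1 had 0 to 4 CpG, Sult5a1 had 5, the Papss1 starts 20 and 5, and the Sult2b1 starts 14 and 10. The motif TTCNNNGAA, to which STAT factors bind and which resembles sites reported for Bcl6, was searched on both strands and occurs in none of the 13 upstream regions of the 9 genes, where 7.02% of all promoter regions of this length hold it. The motif TTCNNNNGAA occurs once, 40 bases before the Sult1a1 start (5.85% of all regions), and TATAAA in none (12.4% of all regions). No match means only that these letters are not in these windows.

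Sult1c2 was at 1.82 and 1.73 in males labelled knockout, against 0.32 and 0.69 in wild-type males, and at 2.64 and 2.38 in females labelled knockout, against 1.76 and 1.51 in wild-type females. In each sex both arrays labelled knockout lay above both wild-type arrays. The means were 1.78 ± 0.06 in males labelled knockout and 0.51 ± 0.27 in wild-type males (SD, n = 2 each), a 2.41-fold difference (log2 1.27 ± 0.18 SE, 95% interval 0.84 to 1.70, limma adjusted p = 0.0104). In females they were 2.51 ± 0.19 in those labelled knockout and 1.64 ± 0.18 in wild type, a 1.83-fold difference (0.87 ± 0.18, 95% interval 0.44 to 1.30, limma adjusted p = 0.045). The female call was lost whichever of the 8 arrays was left out (limma adjusted p from 0.0503 to 0.198), and the male call was lost without male knockout replicate 1 (limma adjusted p = 0.0628) or 2 (0.0563). The female call was also lost in a fit of the female groups alone (limma adjusted p = 0.119) and with no filter on dim probes (0.124). With 2 arrays a group, a leave-one-out fit assumes that the lone array varies like the other groups.

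The order of the Sult1c2 group means was females labelled knockout, males labelled knockout, wild-type females and wild-type males. The arrays of males labelled knockout (1.82 and 1.73) and of wild-type females (1.76 and 1.51) overlapped, and all other neighbours in that order were separate. Wild-type males were 2.19-fold below wild-type females (log2 -1.13 ± 0.18, limma adjusted p = 0.0553), and males labelled knockout were 1.66-fold below females labelled knockout (-0.73 ± 0.18, limma adjusted p = 0.626). Neither sex difference passed the threshold, though the first did with the normexp background correction (-0.95, limma adjusted p = 0.0174). The interaction was 0.40 ± 0.25 (limma adjusted p = 0.735, 95% interval -0.20 to 1.01), so a different response of the sexes was not shown.

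**Figure D1:**
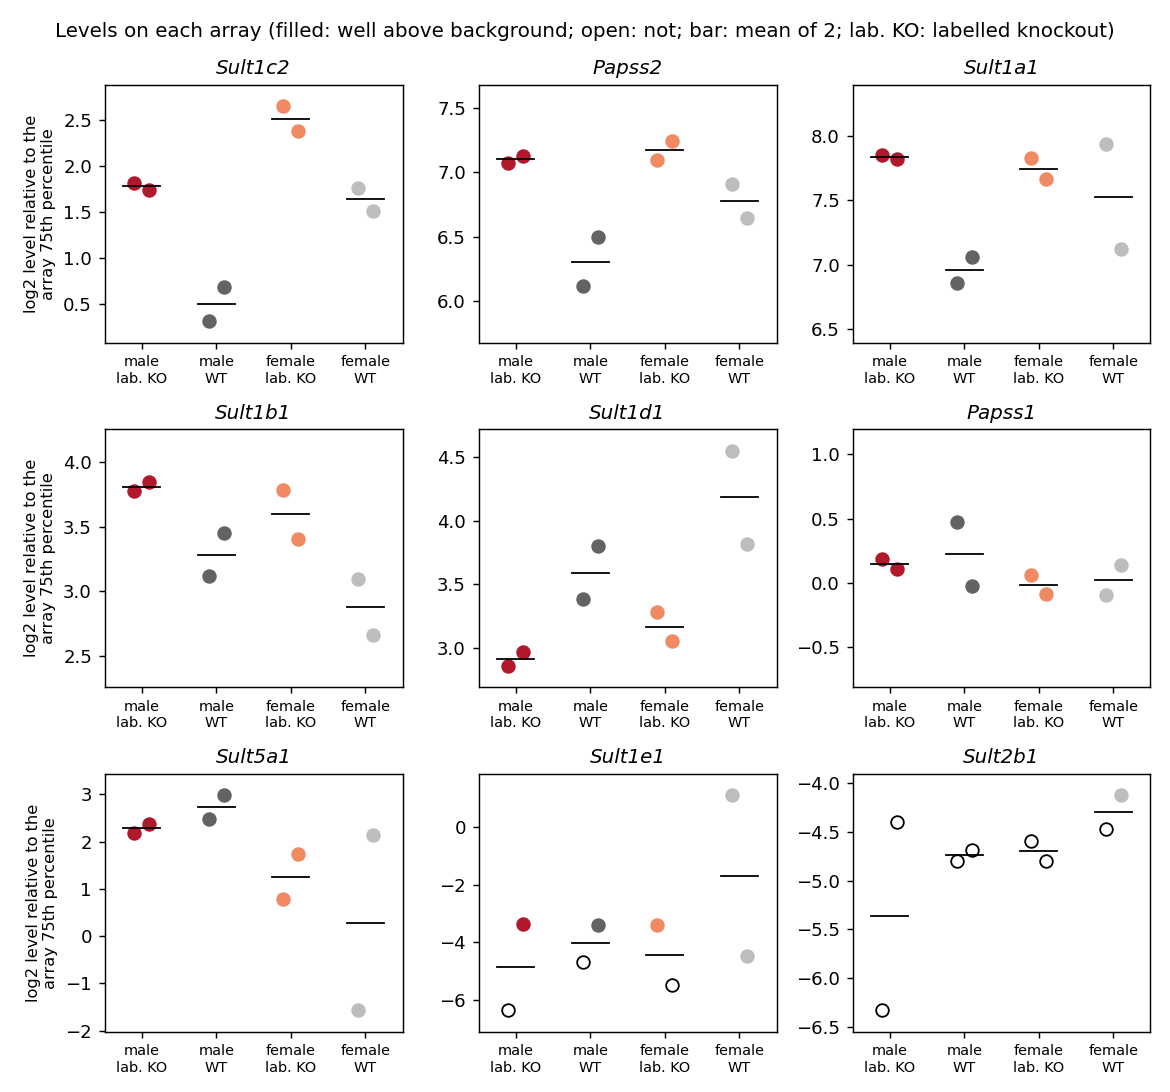
Log2 level of each gene on each of the 8 arrays, relative to the array's 75th percentile (vertical axis, whose range differs between panels and is at least 2 log2 units), in males labelled knockout (lab. KO), wild-type (WT) males, females labelled knockout and wild-type females. Points are arrays, filled where well above background, and bars are means of 2; Sult1c2 and Papss2 lay higher in both groups labelled knockout than in the wild type of the same sex, and Sult1e1 was well above background on 5 of 8 arrays.

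Papss2 makes PAPS in liver and cartilage, and its loss causes the brachymorphic mouse, which has short limbs. Its brighter probe was at 7.08 and 7.13 in males labelled knockout, against 6.12 and 6.50 in wild-type males, and at 7.10 and 7.24 in females labelled knockout, against 6.91 and 6.65 in wild-type females. The groups did not overlap in either sex. The wild-type males were the lowest group, and the groups labelled knockout of both sexes lay together. Papss2 rose 1.73-fold in males labelled knockout (log2 0.79 ± 0.17 SE, n = 2 per group, 95% interval 0.39 to 1.2, limma adjusted p = 0.0349). In females the difference was 0.39 ± 0.17 (95% interval -0.01 to 0.79, limma adjusted p = 0.213). Leaving out 1 array at a time kept the male call in 3 of 8 fits: it was lost without male knockout replicate 1 (limma adjusted p = 0.133) or 2 (0.153), male wild-type replicate 1 (0.105) and female knockout replicate 1 (0.0695) or 2 (0.0681). It was also lost in a fit of the male groups alone (limma adjusted p = 0.072) and with no filter on dim probes (0.1). The second Papss2 probe, tested over all probes, was at 1.89 and 2.01 in males labelled knockout, against 1.02 and 1.43 in wild-type males. It gave a male difference of 0.73 ± 0.16 (limma adjusted p = 0.0418) and a female one of 0.50 ± 0.16 (limma adjusted p = 0.131), so the 2 probes had the same direction and the same side of the threshold. Wild-type males were 1.39-fold below wild-type females (-0.47 ± 0.17, limma adjusted p = 0.225), and the arrays labelled knockout of both sexes overlapped (difference -0.07 ± 0.17, limma adjusted p = 0.99).

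Papss1, the paralogous synthase on chromosome 3, was at 0.18 and 0.11 in males labelled knockout, against 0.47 and -0.02 in wild-type males, and at 0.06 and -0.09 in females labelled knockout, against -0.09 and 0.14 in wild-type females. Arrays labelled knockout and wild type overlapped in each sex. The difference was -0.08 ± 0.18 in males (95% interval -0.53 to 0.37, limma adjusted p = 0.821) and -0.04 ± 0.18 in females (95% interval -0.49 to 0.41, limma adjusted p = 0.918). These intervals leave out a doubling in either direction.

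Sult1a1, the phenol sulfotransferase of chromosome 7 that sulfates paracetamol and other simple phenols, was at 7.85 and 7.82 in males labelled knockout, against 6.86 and 7.06 in wild-type males. In females it was at 7.83 and 7.66 in those labelled knockout, against 7.93 and 7.12 in wild type. The male groups were separate, while wild-type female replicate 1 stood above both arrays of females labelled knockout. The male difference was 0.88 ± 0.26 (1.84-fold, 95% interval 0.25 to 1.51) and did not pass the threshold (limma adjusted p = 0.0892). The second probe gave 0.89 ± 0.25 (limma adjusted p = 0.0771, adjusted over all probes). The male difference passed with the normexp correction (limma adjusted p = 0.0371), in a fit of the male groups alone (0.0337), and without wild-type female replicate 1 (0.0184) or 2 (0.0186). In females the difference was 0.22 ± 0.26 (95% interval -0.41 to 0.85, limma adjusted p = 0.641), and it was 0.62 without wild-type female replicate 1 and -0.19 without wild-type female replicate 2. Wild-type males were below wild-type females by -0.57 ± 0.26 (limma adjusted p = 0.318), which passed at -0.98 without wild-type female replicate 2 (limma adjusted p = 0.0382).

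Sult1b1, Sult1d1 and Sult1e1 lie next to one another on chromosome 5, with no other annotated gene between them. Sult1b1, which sulfates thyroid hormones, was at 3.78 and 3.85 in males labelled knockout, against 3.12 and 3.45 in wild-type males, and at 3.79 and 3.41 in females labelled knockout, against 3.1 and 2.66 in wild-type females. Both arrays labelled knockout were above both wild-type arrays in each sex. The differences were 0.53 ± 0.21 in males (1.44-fold, limma adjusted p = 0.172) and 0.72 ± 0.21 in females (1.64-fold, limma adjusted p = 0.108), and neither passed. The dimmer Sult1b1 probe gave 0.38 ± 0.22 in males and 0.71 ± 0.22 in females (limma adjusted p = 0.324 and 0.124).

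Sult1d1, which in mouse sulfates dopamine and other catecholamines, lay on the other side. It was at 2.86 and 2.97 in males labelled knockout, against 3.38 and 3.80 in wild-type males, and at 3.28 and 3.05 in females labelled knockout, against 4.55 and 3.82 in wild-type females. All 4 arrays labelled knockout were below all 4 wild-type arrays. The differences were -0.68 ± 0.27 in males (1.60-fold lower, limma adjusted p = 0.169) and -1.02 ± 0.27 in females (2.03-fold lower, limma adjusted p = 0.0851), so neither passed. The female difference passed with the normexp correction (-1.04, limma adjusted p = 0.0208) and without wild-type female replicate 2 (-1.39, limma adjusted p = 0.0349), and it was -0.65 without wild-type female replicate 1. The second Sult1d1 probe gave -0.65 ± 0.25 in males and -1.12 ± 0.25 in females (limma adjusted p = 0.162 and 0.058).

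Without overlap, 6 of the 8 tested members separated the male groups and 4 of 8 the female groups. Over all tested features 62.0% of them separated the male groups and 55.5% the female groups. With 8 members the shares are near this background in both sexes, somewhat above it in males and somewhat below it in females. Separation of 2 arrays from 2 is therefore no result about the members.

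**Figure D2:**
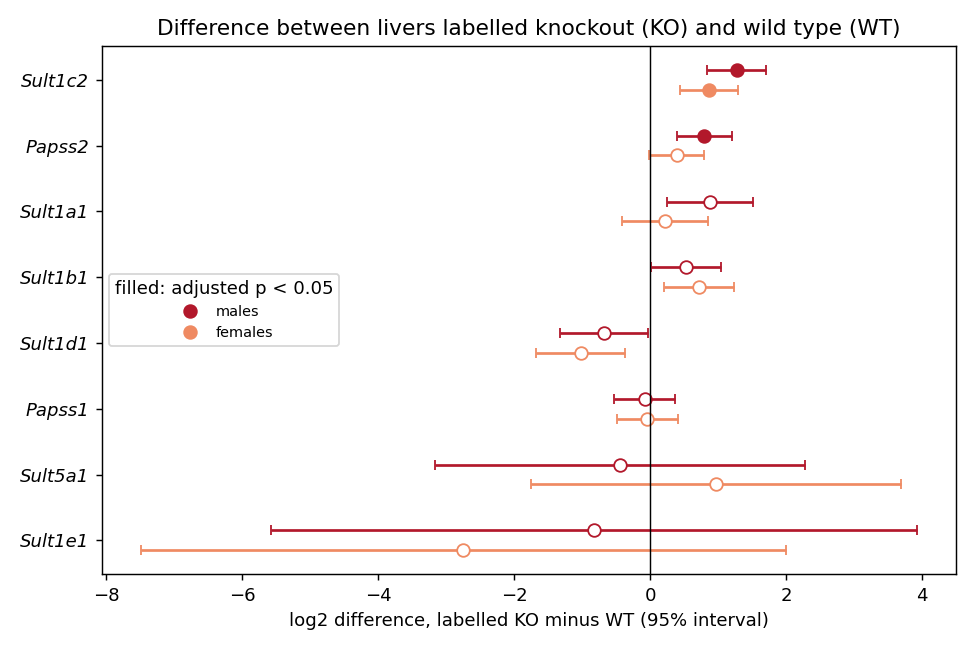
Log2 difference between livers labelled knockout (KO) and wild type (WT) for the 8 tested genes, in males and in females, with 95% intervals from limma; filled points passed the adjusted threshold. Sult1c2 passed in both sexes and Papss2 in males, and the intervals of Sult5a1 and Sult1e1 were the widest; the values of Sult1e1 include 3 arrays not well above background.

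Sult1e1, the estrogen sulfotransferase, inactivates estradiol and estrone. It was at -6.36 and -3.38 in males labelled knockout, against -4.70 and -3.39 in wild-type males, and at -3.39 and -5.47 in females labelled knockout, against 1.09 and -4.47 in wild-type females. It was well above background on 1 of 2 arrays in each group other than wild-type females, where it was so on both. Wild-type female replicate 1 stood far above its replicate, and the arrays labelled knockout overlapped the wild type in each sex. The difference was -0.83 ± 1.95 in males and -2.74 ± 1.95 in females (limma adjusted p = 0.826 and 0.426), with 95% intervals of -5.57 to 3.92 and -7.49 to 2.0, which hold large changes in either direction. Sult1e1 passed the filter only through wild-type females, and these differences include arrays not well above background, so they are not measured folds. The female difference was 0.038 without wild-type female replicate 1 and -5.53 without wild-type female replicate 2.

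Sult2b1, which sulfates cholesterol and pregnenolone and is known from skin, was well above background on 1 of 8 arrays, wild-type female replicate 2 (-4.13). Its other arrays read -6.33 and -4.39 in males labelled knockout, -4.80 and -4.69 in wild-type males, -4.60 and -4.79 in females labelled knockout and -4.47 in wild-type female replicate 1, all not well above background. No fold was formed for it.

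Sult5a1, a sulfotransferase of chromosome 8, was at 2.19 and 2.37 in males labelled knockout, against 2.48 and 2.98 in wild-type males, and at 0.78 and 1.74 in females labelled knockout, against -1.57 and 2.14 in wild-type females. All 4 male arrays read above all 4 female arrays, but male knockout replicate 1 (2.19) and wild-type female replicate 2 (2.14) lay close. How many of all features are ordered so was not counted. The differences labelled by genotype were -0.45 ± 1.11 in males and 0.97 ± 1.11 in females (limma adjusted p = 0.837 and 0.627). Wild-type males were above wild-type females by 2.44 ± 1.11 (5.43-fold, limma adjusted p = 0.32). That difference was 0.58 without wild-type female replicate 1, and 4.30 without wild-type female replicate 2, where it passed (limma adjusted p = 0.0119). In the same way the female genotype difference was -0.88 without wild-type female replicate 1 and 2.83 without replicate 2, where it passed (limma adjusted p = 0.0341). The second Sult5a1 probe was at -1.64 and -2.03 in males labelled knockout, -1.76 and -1.75 in wild-type males, -2.98 and -2.34 in females labelled knockout and -3.56 and -2.05 in wild-type females. On it, males again read above females, by 1.05 ± 0.49 in wild type (limma adjusted p = 0.341), with wild-type female replicate 1 lowest. Here too male knockout replicate 2 (-2.03) and wild-type female replicate 2 (-2.05) lay close.

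Between the sexes 0 of the 8 tested members passed by limma in wild type, where 0.975% of all features were called (0.614% higher and 0.362% lower in males), and 0 of 8 in the groups labelled knockout, where 0.0753% were called (0.0565% higher and 0.0188% lower; 2 and 1 members had an unadjusted p under 0.05, against 18.0% and 6.0% of all features). Taken as males minus females, the median over the 8 was -0.52 in wild type and 0.01 in the groups labelled knockout, against 0.02 and 0.01 over all tested features. In wild type, Sult1c2, Papss2, Sult1a1 and Sult1d1 read lower in males on both arrays, and Sult1b1 and Sult5a1 read higher. The arrays of the sexes were thus separate for 6 of 8 members in wild type, and for 4 of 8 in the groups labelled knockout, where over all tested features 47.8% and 41.4% were separate. The wild-type arrays serve in both the knockout and the sex comparison, so these values are not independent of the knockout differences. Wild-type female replicates 1 and 2 lay far apart for Sult5a1 (-1.57 and 2.14), Sult1e1 (1.09 and -4.47) and, outside the members, Sult2a1 (8.04 and 2.61). For Sult1c2 they lay close (1.76 and 1.51). The absence of calls between the sexes is therefore no evidence that the sexes are alike.

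The genes whose pattern over the 8 arrays was most like that of Sult1c2, by the root-mean-square difference of log2 values centred on each gene's mean among 15523 other genes with a symbol, included Lratd1 (0.21) and Bhlhb9 (0.21). In males labelled knockout against wild-type males, their log2 differences were 1.40 for Lratd1 and 1.28 for Bhlhb9. Those most like Papss2 were Rprl3 (0.08), Abca3 (0.08), a lipid transporter, and Cdkn2c (0.09), an inhibitor of cyclin-dependent kinases. These distances describe 2 arrays a group and carry no test.

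The genes that supply sulfate and PAPS were described from a list of 21, of which 19 were tested. In males labelled knockout 1 of 19 rose and 1 fell, and in females labelled knockout 1 rose and none fell, where 10.7% and 5.93% of all features were called. The medians were -0.09 and 0.10, against -0.04 and 0.00 over all features. Cbs, which commits homocysteine sulfur to cysteine synthesis, was at 8.93 and 8.84 in males labelled knockout, against 8.35 and 8.21 in wild-type males. It rose by 0.61 ± 0.11 in males and 0.65 ± 0.11 in females (limma adjusted p = 0.0222 and 0.0263). Ethe1, a mitochondrial enzyme of sulfide oxidation, fell by 1.55 ± 0.27 in males labelled knockout (limma adjusted p = 0.0198), and its female difference was -0.90 ± 0.27 (limma adjusted p = 0.109).

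Of 14 sulfatases, which remove sulfate, 12 were tested. In males labelled knockout none rose and 2 fell, and in females labelled knockout 1 rose and none fell, with medians of -0.03 and -0.08 (10.7% and 5.93% of all features called). Arsa, the lysosomal sulfatase of sulfatide, was at 2.06 and 1.75 in males labelled knockout, against 4.04 and 3.98 in wild-type males, and at 1.66 and 1.81 in females labelled knockout, against 2.39 and 2.99 in wild-type females. It fell by 2.11 ± 0.22 in males (limma adjusted p = 0.00407), and its female difference was -0.95 ± 0.22 (limma adjusted p = 0.062). Sgsh, a lysosomal enzyme of heparan sulfate breakdown, fell by 0.58 ± 0.11 in males labelled knockout (limma adjusted p = 0.0297), and its female difference was -0.34 ± 0.11 (limma adjusted p = 0.138). Arsg, another lysosomal sulfatase of heparan sulfate, rose by 1.43 ± 0.20 in females labelled knockout (limma adjusted p = 0.0169), and its male difference was 0.74 ± 0.20 (limma adjusted p = 0.0737).

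Of 35 Golgi sulfotransferases, which act on glycans, lipids and proteins of the secretory pathway, 22 were tested. In males labelled knockout 2 rose and 1 fell, and in females labelled knockout 2 rose and none fell, with medians of 0.04 and 0.07 (10.7% and 5.93% of all features called). Hs3st6, a heparan sulfate 3-O-sulfotransferase, was at 2.30 and 2.37 in males labelled knockout, against 1.27 and 0.86 in wild-type males, and at 1.99 and 2.09 in females labelled knockout, against 0.14 and 0.77 in wild-type females. It rose by 1.27 ± 0.24 in males and 1.58 ± 0.24 in females (limma adjusted p = 0.0254 and 0.0197). Gal3st2, a galactose 3-O-sulfotransferase, rose by 0.77 ± 0.13 and 0.71 ± 0.13 (limma adjusted p = 0.0189 and 0.0348). Gal3st1, which makes sulfatide from galactosylceramide, fell by 2.25 ± 0.52 in males (limma adjusted p = 0.0485), and its female difference was -2.39 ± 0.52 (limma adjusted p = 0.0561). It was dim, at -5.09 and -4.82 in males labelled knockout, against -2.09 and -3.33 in wild-type males. In females it was at -3.59 and -4.62 in those labelled knockout, against -1.34 and -2.10 in wild type. At such levels some probes were well above background and others were not. Sult1e1 was so at -4.47 in wild-type female replicate 2, while Sult2b1 was not at -6.33 to -4.39. The size of these falls is therefore uncertain.

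**Figure D3:**
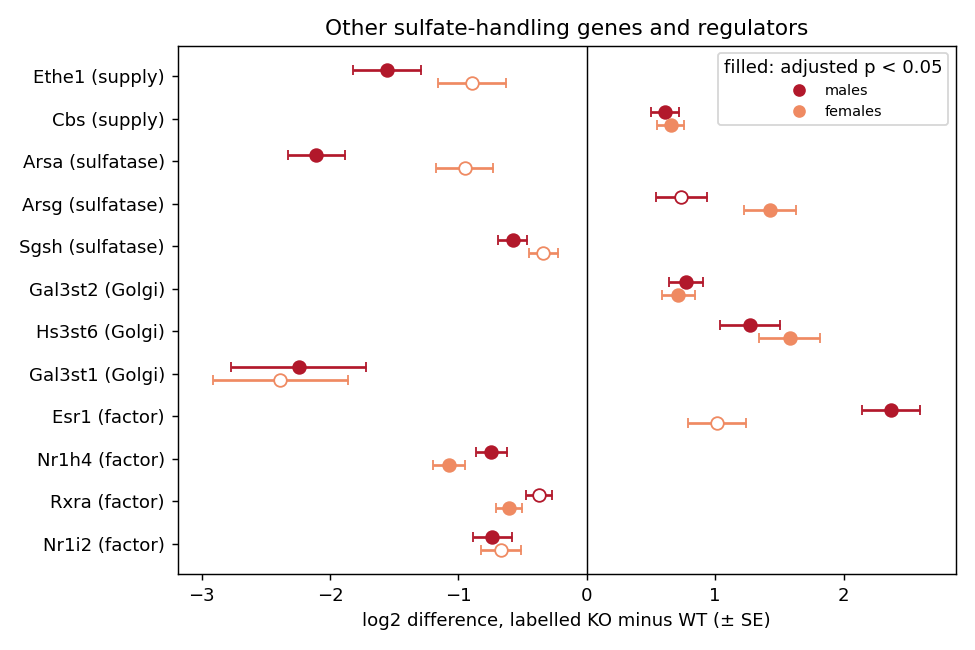
Log2 difference between livers labelled knockout (KO) and wild type (WT), ± SE, for genes of sulfate supply, sulfatases, Golgi sulfotransferases and transcription factors, up to 4 per list with the smallest adjusted p among those past the threshold; filled points passed in that sex. Arsa and Gal3st1 lay to the left of 0 and Hs3st6 and Esr1 to the right in both sexes. Gal3st1 was dim in both groups labelled knockout (-3.59 to -5.09).

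Of 18 nuclear receptors and other transcription factors known to act on sulfotransferase genes, all were tested; in males labelled knockout 1 rose and 2 fell, and in females labelled knockout none rose and 3 fell, with medians of 0.12 and -0.02 (10.7% and 5.93% of all features called). The counts of these 4 lists are small, and nothing is read from them about the lists. Esr1, the estrogen receptor, was at 3.16 and 3.34 in males labelled knockout, against 0.79 and 0.96 in wild-type males, and at 3.09 and 2.91 in females labelled knockout, against 1.66 and 2.31 in wild-type females. It rose by 2.37 ± 0.22 in males (limma adjusted p = 0.00291), and its female difference was 1.02 ± 0.22 (limma adjusted p = 0.0564). Nr1h4, the bile acid receptor FXR, fell by 0.74 ± 0.12 in males and by 1.07 ± 0.12 in females (limma adjusted p = 0.0182 and 0.00909). Nr1i2, the xenobiotic receptor PXR, fell by 0.74 ± 0.15 in males (limma adjusted p = 0.0356), and its female difference was -0.67 ± 0.15 (limma adjusted p = 0.0618). Rxra, the partner of both receptors, fell by 0.61 ± 0.10 in females (limma adjusted p = 0.0288), and its male difference was -0.37 ± 0.10 (limma adjusted p = 0.0769). The third that fell in females was Nr1i3, the xenobiotic receptor CAR, named after its value was seen, at -1.03 ± 0.19 (limma adjusted p = 0.0368). Its male difference was 0.14 ± 0.19 (limma adjusted p = 0.685). Nr1i3 is left out of the counts that follow. Of the 16 calls among the 12 genes named from these 4 lists, 2 were kept whichever of the 8 arrays was left out, Arsa and Esr1 in males, and all 16 kept their direction. Without 1 array the calls of Gal3st1 in males and of Rxra in females were lost in every one of the 8 fits.

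Of 12 tested cytosolic sulfotransferases outside the 9 genes, mostly Sult2a and Sult3a, 8 rose and 1 fell in males labelled knockout, where 2 of the 8 tested here rose and none fell and 10.7% of all features were called. In females labelled knockout 2 of the 12 rose and 1 fell, where 1 of the 8 tested here rose and none fell and 5.93% of all features were called. Those that rose in males, other than Sult1c1 and Sult4a1, read from -6.70 to -4.95 in wild-type males. Genes so dim there may have passed the filter only through groups where they are high, so these counts and those of the members are not alike. Whether the lists differ was not tested. The Sult2a genes are close paralogs, and sharing of signal between their probes was not tested.

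In whole liver, fewer cells of a type and less RNA per cell cannot be told apart. Of 10 hepatocyte markers 1 fell in males labelled knockout, and in females labelled knockout 1 rose and 1 fell. Over all features 10.7% and 5.93% were called, and the medians of these markers were -0.25 in males and 0.03 in females. Markers of several other cell types moved in the same comparisons, most often those of B and plasma cells and of endothelial cells. Of 6 markers of B and plasma cells 4 rose in males labelled knockout and 2 in females labelled knockout, and their summed linear level was 28.7 to 31.9 times the 75th percentile in males labelled knockout, against 10.5 to 11.4 in wild-type males, and 31.5 to 32.0 in females labelled knockout, against 12.5 to 13.0 in wild-type females. Of 6 endothelial markers 3 rose in males labelled knockout and 1 in females labelled knockout, with sums of 49.1 to 55.9 in males labelled knockout, against 29.1 to 31.4 in wild-type males, and of 49.5 to 50.2 in females labelled knockout, against 37.1 to 38.0 in wild-type females. All 6 endothelial markers and 4 of the 6 of B and plasma cells were well above background on all 8 arrays. Of 6 cholangiocyte markers 1 rose in each sex. Of 5 skin markers 1 rose in males labelled knockout, and their sum was 14.7 to 15.7 in males labelled knockout, against 5.15 to 5.40 in wild-type males, and 19.7 to 24.0 in females labelled knockout, against 8.76 to 20.5 in wild-type females. The median difference of these 5 was -0.02 in males and 0.26 in females, so the male sum does not speak for all 5. Of 6 stellate cell markers 1 fell in females labelled knockout, though the median difference of the 6 was 0.33 in males and 0.23 in females. The stellate sum was 91.3 to 100.1 in males labelled knockout, against 70.4 to 83.0 in wild-type males. It was 95.8 to 113.0 in females labelled knockout, against 68.8 to 109.1 in wild-type females. Of the 2 tested intestinal markers 1 fell in females labelled knockout, where their sum was 28.0 to 29.2, against 45.1 to 49.1 in wild-type females. The part of these cells in the levels of Sult1c2 and Papss2 was not tested.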

How the data were processed

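Total RNA of whole liver was labelled with Cy3 and read on 1-colour Agilent arrays, 1 per sample. The deposited intensity values are, per the file headers, processed signals of Feature Extraction 11.5.1.1, background-subtracted and detrended within 1 array; the submitters' processing notes name 9.1.3.1. The authors' deposited value table holds log2 values that equalled log2 of the processed signal minus 1 constant per array (6.99 to 7.30) within 0.01 for 100% of probes, with no centring per gene.

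From the processed signals, outlier spots (55 to 139 per array) were left out, spots of a probe averaged as log2, and each array's 75th percentile over probes subtracted (127 to 158 in linear intensity). Of all 56605 probes, 32994 were named through RefSeq accessions (GRCm38.p6 list, names, chromosomes and promoter sequences only). Of the same 56605 probes, named or not, 33580 passed the filter. The probe with the highest mean stood for a gene. Limma 3.58.1 (R 4.3.3) fitted 4 group means to 8 arrays without the replicate number as a block (lmFit, eBayes, 4 residual and 2.08 prior degrees of freedom), with 5 contrasts adjusted by Benjamini-Hochberg over 26551 features. The median SE was 0.162. No tested member lacked a value. The procedure was tested on simulated data. Python 3.11.15, pandas 2.3.3, numpy 2.4.6 and matplotlib 3.10.9 were used.

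The members and lists were chosen with earlier results of these data known. All members were named, with the 3 genes most like each member that passed (1 of them is not reported here), and up to 4 genes per list among those past the threshold. Alternatives were normexp with an offset of 50 on the raw median intensities, quantile normalization, the value table, no filter, the mean of a gene's probes, only the groups compared, the replicate number as a block, and leaving out each array.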

Additional observations from a re-analysis of the deposited data

How the results depend on the processing

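With 2 arrays a group the calls are few and fragile. Of the members changed in males labelled knockout (2 as reported), Sult1c2 alone was called with no filter on dim probes (1) and under the replicate block (1), Sult1c2 and Sult1a1 but not Papss2 with only the groups compared (2), all of Sult1c2, Papss2 and Sult1a1 with normexp (3), and 0 to 3 members when 1 array was left out. Of the members changed in females labelled knockout (1 as reported), 2 were called with normexp (Sult1c2 and Sult1d1), 0 with no filter, 0 with only the groups compared and 0 under the replicate block, and 0 to 2 when 1 array was left out. Between the sexes in wild type (0 as reported) 1 was called with normexp, Sult1c2, and 0 to 2 when 1 array was left out. The labels tie the replicate numbers to no litter or batch, and the differences between replicates 1 and 2 correlated between groups at -0.0019 to 0.10, so the numbers were not taken to pair the samples. With the block the male difference of Papss2 had limma adjusted p = 0.0552 and the female difference of Sult1c2 0.0728.

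No called difference changed sign in any alternative. Of the uncalled ones, with normexp Sult1e1 turned to 0.057 in males labelled knockout and to 0.062 between the sexes labelled knockout, and Papss1 to 0.0052 in females labelled knockout. Leaving out 1 array turned the following, given as the range over the 8 fits. Genotype differences in males ranged from -0.33 to 0.17 for Papss1 and from -2.32 to 0.67 for Sult1e1. Those in females ranged from -0.15 to 0.077 for Papss1, from -0.19 to 0.62 for Sult1a1, from -5.53 to 0.038 for Sult1e1 and from -0.88 to 2.83 for Sult5a1. Sex differences ranged in wild type from -0.045 to 0.45 for Papss1 and from -5.13 to 0.43 for Sult1e1, and in the groups labelled knockout from -1.93 to 1.06 for Sult1e1 and from -0.14 to 0.0027 for Papss2. Interactions ranged from -0.29 to 0.20 for Papss1, from -0.40 to 0.032 for Sult1b1, from -0.024 to 0.71 for Sult1d1, from -0.86 to 4.70 for Sult1e1 and from -3.28 to 0.44 for Sult5a1. Fits without 1 array or with only the groups compared use fewer samples, and only the groups compared gives no interaction; the cause of the other changes was not tested. Over all features, those called in males were 2841 as reported, 1225 with no filter and 1077 to 2911 without 1 array; in females they were 1574, 522 with no filter, 2651 with normexp, 367 with only the groups compared and 562 to 1690 without 1 array. Between the sexes in wild type they were 259, with 99 with no filter, 615 with normexp, 43 with only the groups compared and 86 to 1059 without 1 array; in the groups labelled knockout 20, with 9 with normexp, 11 with only the groups compared and 11 to 217 without 1 array; for the interaction 50, with 16 with no filter, 25 with the block and 80 to 530 without 1 array.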
